A study of Mus musculus with 6 samples.

Results

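The mitochondrial ribosomal protein genes are the 77 protein-coding rows of the count data, among 43629 genes, whose mouse symbol is Mrpl or Mrps followed by a digit, with names marked as pseudogenes left out. Of these, 48 carry an Mrpl symbol (large subunit) and 29 an Mrps symbol (small subunit). The rule used names alone and no measured value, but earlier results of these data were known when the group was chosen. RNA was sequenced from left ventricles of 6 male F1 CD-1 mice at 1 year of age, and the question was whether exposure to caffeine in utero left a lasting change in the expression of genes in the adult heart. Dams of the 3 caffeine hearts received 20 mg/kg caffeine by i.p. injection once a day from embryonic day (E) 6.5 to 9.5, while dams of the 3 vehicle hearts received normal saline on the same days. A second field of the sample labels ends the exposure at E10.5 instead. The offspring themselves were exposed only through the dam, no allele or transgene was involved, and the sources used here do not say whether mice of a group were littermates, so the p-values measure the spread between these hearts.

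Mitochondria carry their own ribosomes, which translate the few proteins that mitochondrial DNA encodes, all of them subunits of the respiratory chain and ATP synthase. The RNA of the mitochondrial ribosome comes from mitochondrial DNA, but its proteins are encoded in the nucleus, made in the cytosol and imported. Some descend from proteins of the bacterial ribosome and others have no bacterial counterpart. The heart, with its dense mitochondria and constant demand for ATP, depends on this translation, and inherited defects in several of these proteins cause cardiomyopathy.

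Total counts were between 7613011 and 10483101 per heart, with all 3 caffeine totals below the 3 vehicle totals, and 3 counts corresponded to between 0.286 and 0.394 CPM, the count of a gene scaled to a fixed library total. The 10 genes with the most counts took 17.07 to 20.07% of a vehicle library and 22.59 to 25.95% of a caffeine library. CPM values below were scaled by the trimmed mean of M values (TMM). Cardiomyocyte markers summed to between 51740 and 61790 CPM in every heart, while lymphocyte and adipocyte markers stayed at or under 1.759 CPM in sum. In whole tissue, fewer cells of a type and less RNA per cell cannot be told apart.

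The genes lie apart from each other, on 17 chromosomes with at most 11 on one of them (chromosome 11). Exact words known from nuclear genes for mitochondrial proteins were searched on both strands, from 250 bases before to 50 bases after the RefSeq start of transcription. They were the core of the nuclear respiratory factor 1 site (NRF1, GCGCATGC), the core bound by ETS factors such as GABP (CCGGAAG) and the core of the YY1 site (AAGATGGC). RefSeq (GRCm38.p6) held a window for 68 of the 77 genes. No window was held for Mrpl4, Mrpl13, Mrpl15, Mrpl19, Mrpl38, Mrpl54, Mrps28, Mrps34 and Mrps35. The last 120 bases before the start are shown for 4 genes, written 5′ to 3′ on the strand of the gene, with capitals on every NRF1, ETS or YY1 match on either strand. Mrpl22, Mrpl43 and Mrps27 show the range from a window with both an NRF1 and an ETS core to one with ETS cores alone, and the YY1 match of Mrps27 lies outside the bases shown. Mrpl55 is shown because it had the smallest p-value of the group between the treatments, and it has no match.
Mrpl22 (chr11:58171544-58171663, plus strand): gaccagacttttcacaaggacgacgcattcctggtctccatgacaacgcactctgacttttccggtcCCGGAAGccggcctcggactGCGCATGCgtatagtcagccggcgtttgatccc
Mrpl43 (chr19:45006443-45006562, minus strand): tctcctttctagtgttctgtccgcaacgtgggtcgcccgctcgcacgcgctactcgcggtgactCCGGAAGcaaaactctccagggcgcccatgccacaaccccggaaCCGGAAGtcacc
Mrps27 (chr13:99344666-99344785, plus strand): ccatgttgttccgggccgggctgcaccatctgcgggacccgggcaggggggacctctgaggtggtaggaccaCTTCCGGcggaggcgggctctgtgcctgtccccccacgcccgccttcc
Mrpl55 (chr11:59202366-59202485, plus strand): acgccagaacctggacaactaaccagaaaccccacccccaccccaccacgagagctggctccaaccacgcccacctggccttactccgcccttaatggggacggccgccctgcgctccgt

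At least 1 of the 3 cores was found in 35 of the 68 windows (51.5%), beside 26.3% of the 9355 windows of tested protein-coding genes and 18.0% of all 16316 protein-coding windows. The ETS core was the most frequent, in 23 of 68 windows (33.8%, against 18.5% of tested genes). YY1 cores were in 12 (17.6%, against 4.72%) and NRF1 cores in 7 (10.3%, against 5.56%). General promoter words were searched as well and were not more frequent than in tested genes. GGGCGG was in 50.0% of the members' windows (against 66.0%) and CCAAT in 38.2% (against 38.4%). CACGTG was in 7.35% (against 10.2%) and TATAAA in 5.88% (against 6.96%). The NRF1 letters can overlap their own reverse complement, and such runs were counted once per window. By subunit, any core was in 22 of 42 Mrpl windows (52.4%) and 13 of 26 Mrps windows (50.0%). Windows of respiratory chain and ATP synthase genes held a core in 43.7% and those of cytosolic ribosomal protein genes in 42.3%. These matches are descriptions of letters within a fixed window and not binding sites.

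**Figure D1:**
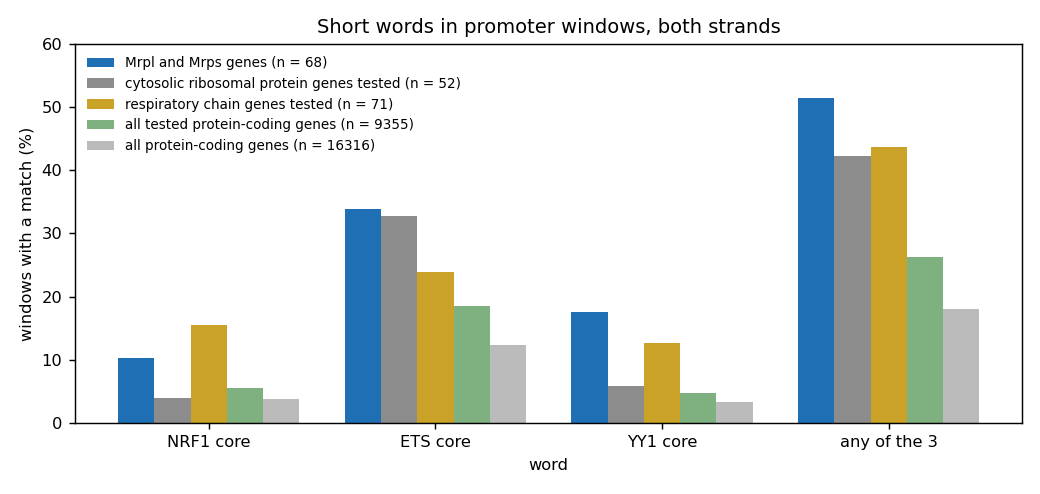
Share of promoter windows (percent, bars from 0) that hold the NRF1, ETS or YY1 core or any of the 3, for Mrpl and Mrps genes, cytosolic ribosomal protein genes, respiratory chain genes, all tested protein-coding genes and all protein-coding genes. Any core was found in 51.5% of the Mrpl and Mrps windows and in 26.3% of those of all tested genes.

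No mitochondrial ribosomal protein gene differed between caffeine and vehicle hearts at the thresholds of the study, an adjusted p-value below 0.05 with an absolute fold change above 1.5. Of the 77 genes, 75 had enough counts to be tested with edgeR's quasi-likelihood test, and 0 were called higher and 0 lower, where 14 of all 13092 genes tested (0.107%) were called. At an unadjusted p below 0.05 there were 2 (2.67%), Mrpl55 above and Mrps10 below vehicle, beside 8.82% of all genes tested. The 75 log2 fold changes ran from −0.33 to 0.27. No member was called by edgeR's exact and likelihood ratio tests, DESeq2 or limma-voom either, which gave 1, 1, 0 and 1 members at an unadjusted p below 0.05.

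The intervals show how large a change these counts leave room for. The 95% interval of the fold change lay within 1.5-fold in both directions for 70 of the 75 genes (93.3%), beside 63.0% of all genes tested. The 5 others, named after their values were seen, were Mrpl14, Mrpl41, Mrps10, Mrps18b and Mrps36. Mrps36 had the widest, from −0.80 to 0.31 on the log2 scale. The median standard error of a log2 fold change was 0.105 for the members and 0.149 for all genes, and the median SD of log2 CPM between hearts of a treatment was 0.122 and 0.176. Within the 6 hearts, the highest value of a member was a median of 1.25-fold its lowest, and it stayed under 1.5-fold in 66 of 75.

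**Figure D2:**
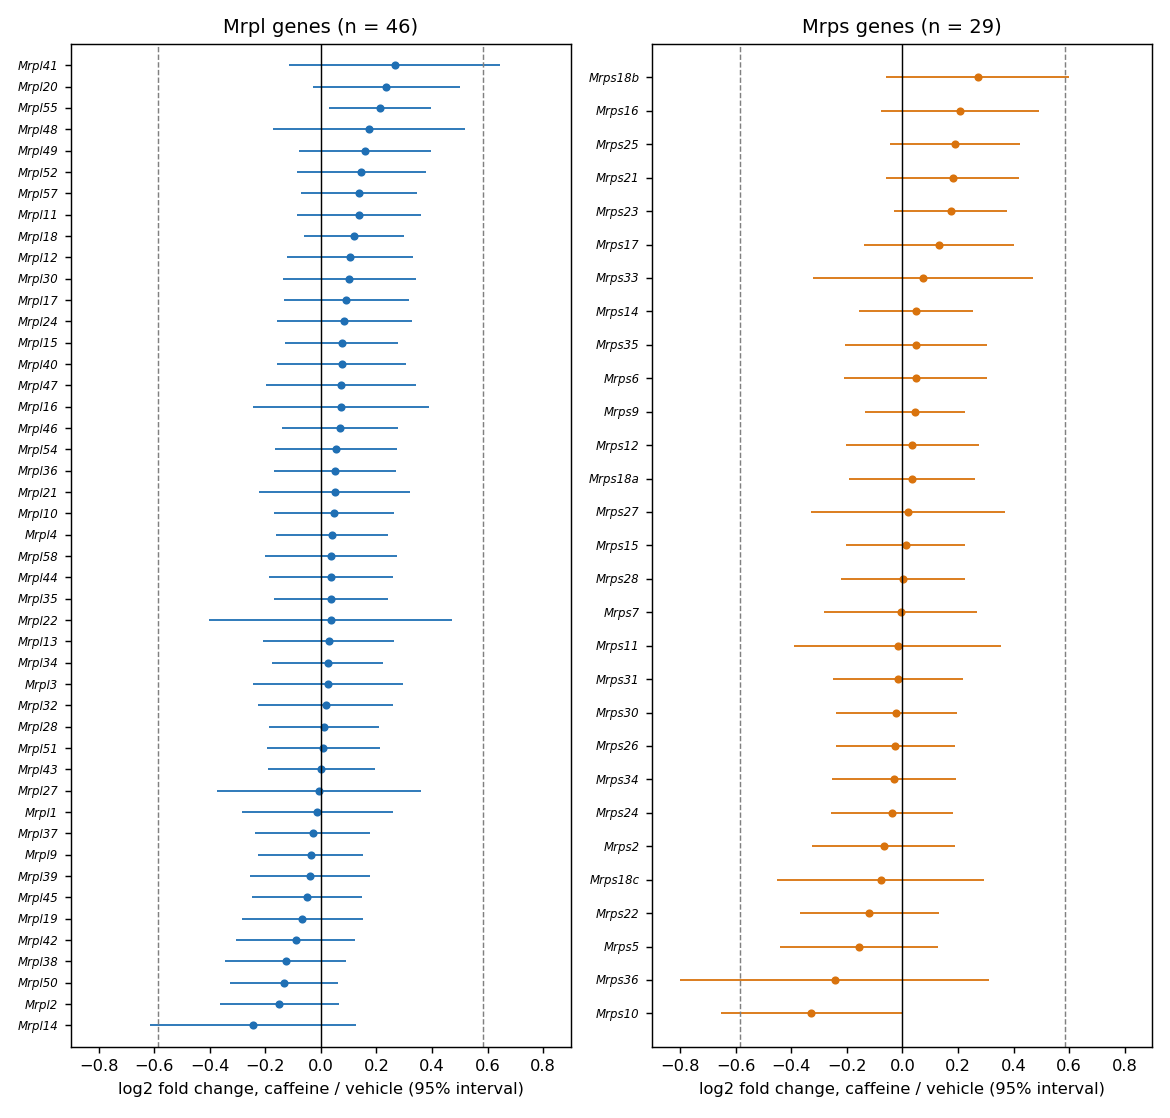
Log2 fold change of caffeine against vehicle hearts for each tested Mrpl gene (left, n = 46) and Mrps gene (right, n = 29), with points for the edgeR estimate, lines for its 95% interval and dashed lines at 1.5-fold. All points lie between −0.33 and 0.27, and the intervals of 70 genes stay between the dashed lines.

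Mrpl55, a large subunit protein (chr11:59202486-59206134), measured 58.5, 55.9 and 56.6 CPM in the vehicle hearts and 68.2, 66.3 and 63.9 CPM in the caffeine hearts. Every caffeine heart was above every vehicle heart. Its means were 57.0 ± 1.34 and 66.1 ± 2.14 CPM (SD, n = 3 each), a log2 fold change of 0.21 ± 0.08 (SE). The edgeR p was 0.0277 and the adjusted p 0.49, the smallest among the members, and the exact permutation p was 0.1, which is the smallest that 20 labelings of 3 against 3 hearts can give. Over the 18 other fits the fold change of Mrpl55 stayed above 0.

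Mrps10, a small subunit protein of bacterial descent (chr17:47368887-47381417), measured 10.8, 12.2 and 11.1 CPM in vehicle and 8.68, 8.35 and 10.2 CPM in caffeine hearts. All caffeine hearts were below all vehicle hearts, with no overlap. The log2 fold change was −0.33 ± 0.15 (SE), with an interval from −0.65 to −0.00174 and an edgeR adjusted p of 0.563. Here too the exact permutation p was 0.1.

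Non-overlapping treatments were found for 4 members in all, beside 7.11% of all genes tested with every caffeine heart above and 7.12% with every caffeine heart below. Besides Mrpl55 and Mrps10 they were Mrpl18 and Mrpl50, which are named here after their values were seen. Mrpl18, a large subunit protein of bacterial descent, had 64.3, 62.3 and 62.3 CPM in vehicle and 68.6, 68.5 and 67.9 CPM in caffeine hearts, a log2 fold change of 0.12 (adjusted p = 0.734 by edgeR). Mrpl50, a large subunit protein, had 96.8, 88.7 and 84.5 CPM in vehicle and 84.3, 82.5 and 79.4 CPM in caffeine hearts, a log2 fold change of −0.13 (adjusted p = 0.717 by edgeR). The separations depended on the scaling. With library size alone in place of TMM, 12 of the 75 members did not overlap, 1 with caffeine above and 11 with caffeine below, where 3.06% of all genes tested were above and 14.0% below without overlap.

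Among the other members with the highest fitted fold changes, Mrps18b (small subunit) was at 0.27, Mrpl41 (large subunit) at 0.27, Mrpl20 (large subunit, of bacterial descent) at 0.24 and Mrps16 (small subunit, of bacterial descent) at 0.21 on the log2 scale, none past the test. For Mrpl20 the vehicle hearts had 42.3, 52.0 and 47.4 CPM and the caffeine hearts 64.4, 50.3 and 52.4 CPM. Its highest value was that of caffeine heart 1, and the other caffeine hearts fell within or next to the vehicle range. Without caffeine heart 1 its log2 fold change was 0.12. Mrpl41 reached 36.6, 41.4 and 58.0 CPM in vehicle and 43.8, 58.9 and 60.2 CPM in caffeine hearts, so the ranges overlapped widely. With 1 heart left out its log2 fold change ran from 0.13 (without vehicle heart 1) to 0.48 (without vehicle heart 3).

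At the other end, Mrpl14 (large subunit, of bacterial descent) had a log2 fold change of −0.24 (interval −0.61 to 0.13). Its levels were 123, 87.0 and 72.8 CPM in vehicle and 85.0, 69.9 and 84.2 CPM in caffeine hearts, and only vehicle heart 1 stood above the caffeine range by a wide step. Without that heart the log2 fold change of Mrpl14 was −0.0060, and without vehicle heart 3 it was −0.40. Mrps5, of the small subunit, was at −0.15, and Mrpl2, near the peptidyl transferase centre of the large subunit, was also at −0.15 (−0.05 without vehicle heart 1). Mrps36, whose product is a component of the 2-oxoglutarate dehydrogenase complex and not of the ribosome despite its name, was at −0.24 from 30 to 69 counts per heart (−0.04 without vehicle heart 1). Mrps21 (0.18), Mrps23 (0.17) and Mrps25 (0.19), all of the small subunit, were also among the smallest p-values, with edgeR adjusted p between 0.641 and 0.681. For Mrps25, 69.8% of the exon length lies over exons of Nr2c2 on the opposite strand, and since the strand setting of the counting is not given in the sources used here, how its reads were shared with that neighbour is uncertain.

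The direction of the group as a whole depended on the scaling and on single hearts. With TMM scaling 50 of the 75 members were above 0 and 25 below, with a median log2 fold change of 0.04, beside 0.0009 for all genes tested. Under library size alone 19 were above 0 and the median was −0.05, where the median of all genes was itself −0.08. The median of the members minus that of all genes was 0.034 with TMM and 0.035 with library size alone. Without caffeine heart 1 the median was −0.02, with 32 members above 0, and without vehicle heart 2 it was −0.0050, with 35 above 0. Without vehicle heart 1 it was 0.08, with 60 above 0.

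Large and small subunit genes were compared next. Of the 46 tested Mrpl genes 34 were above 0 and 12 below (median log2 fold change 0.04), and of the 29 Mrps genes 16 were above and 13 below (median 0.01), a difference of 0.03 between medians. In the vehicle hearts the Mrpl genes summed to 3237, 2930 and 2985 CPM and in the caffeine hearts to 3276, 3026 and 3017 CPM. The Mrps genes summed to 1496, 1326 and 1356 CPM in vehicle and 1565, 1386 and 1368 CPM in caffeine hearts. Both sums overlapped between treatments, with heart 1 of each treatment the highest. The ratio of the 2 sums was 2.16, 2.21 and 2.20 in vehicle hearts and 2.09, 2.18 and 2.21 in caffeine hearts, or 2.19 ± 0.0240 and 2.16 ± 0.0590 (SD, n = 3 each). Caffeine heart 1 had the lowest ratio, and the ratios of the other two caffeine hearts lay within the vehicle range. This ratio does not depend on the scaling of the libraries.

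**Figure D3:**
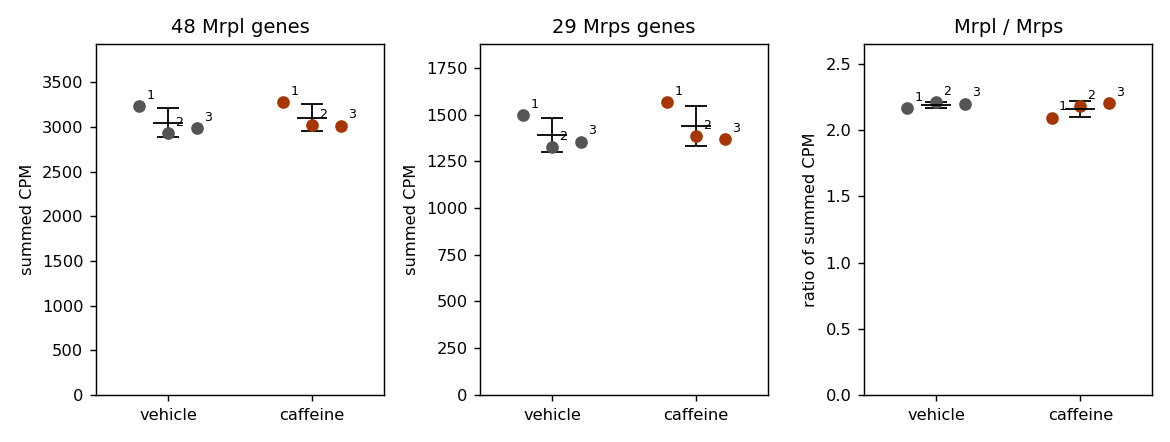
Summed CPM of the 48 Mrpl genes, summed CPM of the 29 Mrps genes and the ratio of the sums in each heart (points numbered by replicate, axes from 0), with the mean and SD of each treatment (n = 3). The treatments overlap in each panel, and heart 1 has the highest sums and the lowest ratio in both treatments.

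Symbols do not follow the structure in 3 cases. The proteins of Mrps18a and Mrps30 sit in the large subunit, and Mrps36 is no ribosomal protein. Mrps18a measured 99.7, 87.1 and 91.5 CPM in vehicle and 108, 87.1 and 90.2 CPM in caffeine hearts, a log2 fold change of 0.03. Mrps30 measured 40.5, 35.4 and 36.0 CPM in vehicle and 37.0, 35.4 and 37.8 CPM in caffeine hearts, a log2 fold change of −0.02. Each overlapped between treatments, and the other members of the Mrps18 family, Mrps18b (0.27) and Mrps18c (−0.08), lay on opposite sides of 0 with intervals that both span it. Assigned by the protein, the medians of 48 large and 26 small subunit genes differed by 0.02.

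Members were also split by lists of descent. These lists count Mrpl47 and Mrpl55 as mitochondrial only, although their proteins are related to bacterial ribosomal proteins, so the split by descent is approximate. The 42 tested members listed with a bacterial counterpart had a median log2 fold change of 0.04 (29 above 0, 13 below). The 30 listed as mitochondrial only had one of 0.04 (20 above, 10 below). Within the large subunit the medians were 0.04 for 26 genes listed with a bacterial counterpart and 0.05 for 20 listed without. In the small subunit they were 0.0072 for 16 and 0.03 for 10. The 34 tested members with an NRF1, ETS or YY1 core in the window had a median of 0.03 and the 32 without one 0.05. None of these lists held a called gene.

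With TMM scaling, many members shared a pattern between hearts of the same treatment. Of the 75 members, 52 were highest in vehicle heart 1 among vehicle hearts, and 53 were highest in caffeine heart 1 among caffeine hearts. How many of all genes tested were highest in these hearts was not counted. The median log2 deviation of the members from the mean over both treatments was 0.08 in vehicle heart 1 and 0.10 in caffeine heart 1. Over all genes tested it was 0.0006 and −0.0004. For the members it was between −0.07 and −0.03 in the 4 other hearts. This deviation was not taken within a treatment, so it includes any difference between the treatments. In sum the members took 4733, 4257 and 4341 CPM in vehicle and 4841, 4412 and 4385 CPM in caffeine hearts. As a plain share of all counts, without TMM, they took 0.462, 0.443 and 0.464% in vehicle and 0.454, 0.427 and 0.440% in caffeine hearts, so vehicle heart 1 was then no longer the highest of its treatment. Without TMM 29 members were highest in vehicle heart 1 and 32 in vehicle heart 3, and 36 were highest in caffeine heart 1.

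Other lists deviated from the mean over both treatments in these hearts to other extents. Respiratory chain and ATP synthase genes deviated by 0.17 in vehicle heart 1 and 0.09 in caffeine heart 1. Cytosolic ribosomal protein genes deviated by 0.03 and 0.19. The 8 cardiomyocyte markers were high in vehicle heart 1 (0.21) and low in caffeine heart 1 (−0.11). The part of these lists in the levels of the members was not tested.

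Levels per kilobase of exon (RPKM, here CPM divided by the exon length in kilobases) differed far more between members than between treatments. The median over the 75 was 18.6 RPKM, with a range from 1.27 to 136 RPKM, and 63 lay within 4-fold of the median. Mrpl genes had a median of 26.2 and Mrps genes of 14.2 RPKM. Mrpl28 and Mrpl34, large subunit proteins of bacterial descent, led the order with means of 136 and 125 RPKM, together with Mrps23 of the small subunit at 126 RPKM. Mrpl14 followed at 91.7 RPKM. The 3 leading genes overlapped in their values over the hearts and do not form an order.

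Mrps36 (3.87 RPKM), Mrps5 (2.60), Mrpl48 (2.07) and Mrps10 (1.27) had the lowest levels. The union of annotated exons is 8079 bases for Mrps10, 8152 bases for Mrpl48 and 6578 bases for Mrps5, which lowers a level per kilobase, and their mean levels without division by length were 10.2, 16.9 and 17.1 CPM. For Mrps36 the exon union is 1274 bases, and its mean of 4.93 CPM was the lowest of the tested members on that scale too. Between hearts, Mrps36 varied most (highest 1.92-fold the lowest), then Mrpl14 (1.76-fold), Mrpl41 (1.64-fold) and Mrpl22 (1.58-fold), whose product lines the exit tunnel of the large subunit.

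**Figure D4:**
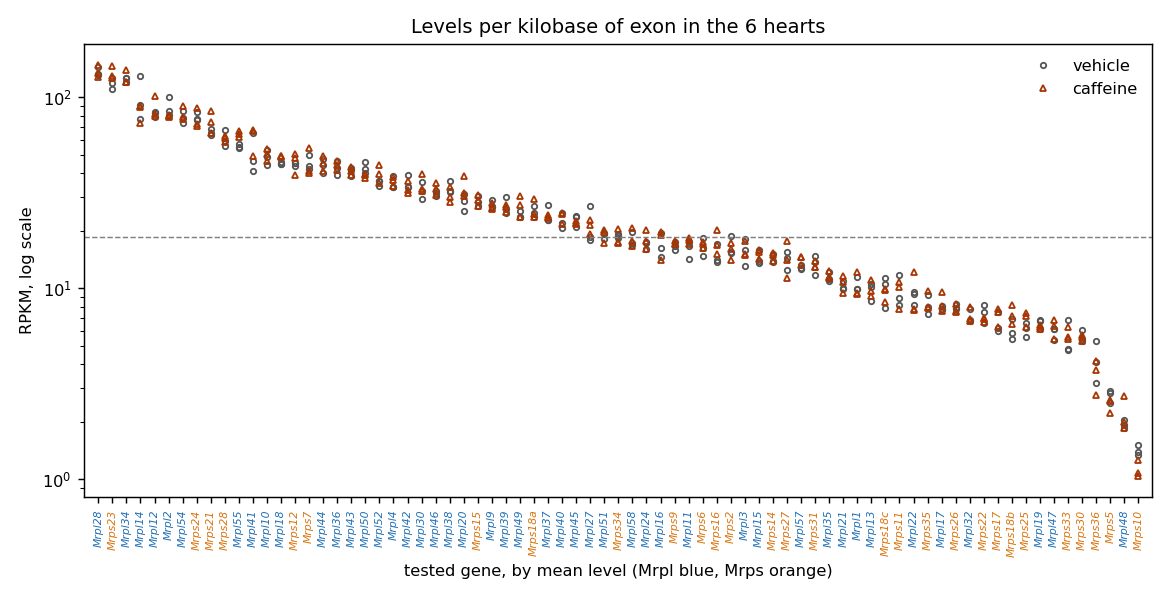
RPKM (log axis) of the 75 tested genes in each heart (circles vehicle, triangles caffeine), ordered by the mean, with the median of 18.6 RPKM dashed. Levels span 1.27 to 136 RPKM across genes, while the symbols of the treatments overlap for all but 4 genes.

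Both untested members had few or no counts. Mrpl23 had 3, 14 and 1 counts in vehicle and 3, 1 and 2 in caffeine hearts. Mrpl53 had 0 in all 6, which allows up to 0.286 to 0.394 CPM for counting error only, and 88.0% of its exon length lies over exons of Gm42688 and Ccdc142os. Exons of another gene overlapped 32 of the members to some extent, over more than 50% of the length in 3 (Mrpl53, Mrps25 and Mrps34). Mrpl33 was not analysed here. The closest pair of members, Mrpl46 and Mrps11 on chromosome 7, stands head to head with RefSeq starts 42 bases apart, and their log2 fold changes were 0.07 and −0.02.

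Other genes of mitochondrial translation gave no call either. Of the 5 mitochondrial ribosomal proteins under other names, 1 was above 0 and 4 below (median −0.09). Dap3, a GTP-binding protein of the small subunit first named for a part in cell death, had 129, 104 and 105 CPM in vehicle and 95.3, 91.3 and 102 CPM in caffeine hearts, without overlap (log2 fold change −0.23, edgeR adjusted p = 0.563). Of 25 tested assembly and rRNA modification genes, 11 were above and 14 below 0 (median −0.01). Rbfa, a ribosome maturation factor, had the smallest p among them (log2 fold change −0.29, edgeR adjusted p = 0.649). Translation factors were below 0 in 9 of 13 (median −0.08), with the ribosome recycling factor Gfm2 at −0.18 (edgeR adjusted p = 0.579). Genes of mitochondrial transcription and mRNA stability (10 tested, median −0.04) and activators of nuclear genes for mitochondria (9 tested, median 0.0087) held no gene at an unadjusted p below 0.05. Among those activators, Gabpa, the DNA-binding subunit of GABP, was at −0.11 and Nrf1 at 0.13 on the log2 scale, both with intervals spanning 0.

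Mitochondrial aminoacyl-tRNA synthetases had a median log2 fold change of −0.01, with 7 of 17 above 0. Lars2, which charges the mitochondrial leucine tRNAs, stood apart at 21600, 17500 and 15300 CPM in vehicle and 30300, 27700 and 25700 CPM in caffeine hearts, where the next highest synthetase, Iars2, reached no more than 154 CPM. Its log2 fold change was 0.62 ± 0.13 (SE), with an edgeR quasi-likelihood adjusted p of 0.146. The adjusted p was 0.00157 by edgeR's exact test, 0.00152 by its likelihood ratio test and 0.000251 by DESeq2. The quasi-likelihood test itself passed with the replicate number as a block (adjusted p = 0.0297) and without vehicle heart 1 (adjusted p = 0.0198). It also passed without the filter on counts (adjusted p = 5.23e-07). With library size only the same test gave an adjusted p of 0.0344, but the log2 fold change of 0.54 was below 1.5-fold. The call thus depended on the test, on the design, on the filter and on that heart. Which reads make up so high a count at Lars2 was not tested.

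Set beside the genes of similar function, the members lay between both. Cytosolic ribosomal protein genes, which build the ribosome of the cytosol, had a median log2 fold change of 0.09 (50 of 66 above 0), and nuclear genes of the respiratory chain and ATP synthase one of −0.05 (16 of 90 above 0). Like that of the members, these medians depended on scaling and single hearts. The cytosolic median was 0.0070 without caffeine heart 1 and 0.0060 with library size only, and the respiratory chain median was 0.02 without vehicle heart 1 and −0.13 with library size only. With library size only the median of all genes was itself −0.084. The differences between the lists hardly moved with that scaling. The median of the members minus the cytosolic one was −0.053 with TMM and −0.055 with library size only. Minus the respiratory chain one it was 0.083 and 0.084. No gene of either list was called. Intervals of the cytosolic genes stayed within 1.5-fold in 65.2%, beside 63.0% of all genes tested, 93.3% of the members and 95.6% of the respiratory chain genes. Many cytosolic ribosomal protein genes have near-identical copies in the genome, and how reads were shared with these copies was not tested. Respiratory chain genes summed to 56510, 48390 and 48650 CPM in vehicle and 51260, 47250 and 46420 CPM in caffeine hearts.

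Markers of other cells of the ventricle were read beside these values. Fibroblast markers were above 0 in 6 of 6 (0 called, 3 at an unadjusted p below 0.05), with sums of 770 to 881 CPM in vehicle and 943 to 1082 CPM in caffeine hearts. Macrophage markers were above 0 in 5 of 5, with sums of 87.5 to 132 CPM in vehicle and 104 to 197 CPM in caffeine hearts. Endothelial markers were above 0 in 2 of 5, with sums of 593 to 692 CPM in vehicle and 631 to 665 CPM in caffeine hearts. None of these 3 lists had a defining marker at 0. Atrial markers differed most, with sums of 53.3, 91.5 and 182 CPM in vehicle and 267, 372 and 435 CPM in caffeine hearts, without overlap. Nearly all of that was Nppa, the atrial natriuretic peptide gene that ventricles also express under load, with a log2 fold change of 1.74 ± 0.35 (SE, edgeR adjusted p = 0.125), while Myl7, Sln and Myl4 stayed at or under 1.76 CPM in every heart, Myl7 and Sln at 0 in 2 hearts each. Cardiomyocyte markers were below 0 in 7 of 8 and not called. The part of these shifts in the values of the members was not tested.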

How the data were processed

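Poly(A) RNA of the left ventricles was made into libraries and sequenced single-end on a NextSeq500. The authors used FastQC on the reads, TopHat2 for alignment to the mm10 genome (GRCm38) and HTSeq with an Ensembl annotation for counting, and tool versions and strand setting are not given in the sources used here. The deposited values are raw counts per gene, not normalized, with no replicates pooled.

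Members and lists were chosen with earlier results of these data known. Symbols, positions and exon lengths came from GENCODE of GRCm38, matched by Ensembl identifier (42462 of 43629 had a symbol). Counts were filtered with filterByExpr (minimum count 10, minimum total 15), scaled by TMM and fitted with edgeR 4.0.16 (glmQLFit, glmQLFTest, treatment as the only term) in R 4.3.3. The adjusted p-values are Benjamini-Hochberg values over all 13092 genes. Intervals are 95% intervals of the fold change. Levels per kilobase divide TMM-scaled CPM by the union exon length. Exact permutation tests of log2 CPM were two-sided. No test was run over lists. DESeq2 1.42.0, limma 3.58.1, other scalings and filters, a replicate block and left-out hearts were alternatives. Replicates differed beyond sampling noise (chi-square per degree of freedom 5.37 to 14.0), so none was a repeated library.

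Genes named are those with the smallest p, the highest and lowest fold changes, the highest and lowest levels, the widest spread between hearts, the untested members and members whose symbol and subunit differ. Others are marked in the text or named for position or sequence.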

Additional observations from a re-analysis of the deposited data

How the results depend on the processing

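No member was called in the main fit or in any of 18 alternative fits, and the lowest adjusted p over the members ran from 0.343 (no filter) to 0.913 (DESeq2). Over all genes, 14 were called in the main fit, 94 by edgeR's exact test, 101 by its likelihood ratio test, 67 by DESeq2, 27 with library size only, 240 without the filter and 40 with the replicate block, and between 4 and 28 with 1 heart left out. Among other genes of mitochondrial translation, 0 were called in the main fit and 1 by the exact test, the likelihood ratio test, DESeq2, without the filter and with the replicate block (Lars2 each time), and 0 to 1 with 1 heart left out (1 without vehicle heart 1, Lars2 again). With library size only, the median log2 fold change of the members was −0.048, and 12 of 75 members did not overlap between treatments in place of 4 (1 above and 11 below, beside 3.06% and 14.0% of all genes, whose median was then −0.084). With 1 heart left out the median ran from −0.021 to 0.081. The cause of these shifts was not tested. The difference between Mrpl and Mrps medians ran from 0.014 to 0.048 over all alternatives.

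Same-numbered hearts did not deviate together over all genes (correlations 0.045, −0.03 and −0.038), so the numbers were not taken to pair the hearts. Over the members alone the correlations were 0.109, 0.155 and 0.303, and every heart correlated best with its own number, which is a hint from the data and not from the labels. With the replicate block the median of the members was 0.032. Intervals left room for a change past 1.5-fold in 5 members, both at few counts (Mrps36, 30 to 69 per heart) and at many (Mrpl14, 607 to 1261 per heart).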
